A study of Mus musculus with 12 samples.

Results

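Oxidative phosphorylation is carried out by 5 protein complexes of the inner mitochondrial membrane and is the main source of ATP in liver parenchyma. Complex I oxidises NADH and complex II oxidises succinate, both passing electrons to ubiquinone. Complex III hands them to cytochrome c, complex IV passes them to oxygen, and complex V, the ATP synthase, uses the proton gradient that results. Most subunits are encoded in the nucleus, and a small set is encoded by mitochondrial DNA (mtDNA), so that assembly of complexes I, III, IV and V draws on both genomes, whereas complex II is wholly nuclear. The genes described here were chosen by name alone: every array probe with 1 gene symbol that starts with Ndufa, Ndufb, Ndufc, Ndufs, Ndufv, Uqcr, Cox4i, Cox5, Cox6, Cox7, Cox8 or Atp5, or that is Sdha, Sdhb, Sdhc, Sdhd, Cyc1 or Cycs, without the Ndufaf assembly factors. This gave 126 probes of 81 genes among 19053 genes on the array, each gene being represented by its brightest probe on average. Of these, 75 genes lay above background on both arrays of at least 1 group, namely 35 of complex I, 3 of complex II, 8 of complex III, cytochrome c (Cycs), 12 of complex IV and 16 of complex V. The other 6 were not above background by that rule: Cox4i2, Cox7b2, Cox8b, Cox8c, Ndufs1 and Sdha. The symbol Ndufs5-ps among the complex I genes is that of a pseudogene, so its probe may report the parent gene.

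The study compared liver cells of mice exposed to diethylnitrosamine (DEN), a hepatocarcinogen activated by hepatocyte cytochrome P450 enzymes, with cells of age-matched untreated mice. All animals were male C57Bl/6 and are labelled WT. The DEN mice had received 25 mg/kg by the intraperitoneal route when 25 days old, and follow-up lasted 9 months. Hepatocytes, macrophages and sinusoidal endothelial cells (SEC), the fenestrated lining of the liver sinusoids, were each profiled with and without DEN on 2 Illumina arrays, which gave 6 groups and 12 arrays. The RNA of each cell type was pooled from 3 to 4 DEN mice, and no label tells if a group's arrays hold separate pools, so p-values measure the spread between arrays, which may be technical. The isolation of the cells is not described in the labels.

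All 18 measured hepatocyte markers lay above background on the untreated hepatocyte arrays, all 15 SEC markers on the SEC arrays and all 11 Kupffer cell markers on the macrophage arrays. The Kupffer cell markers were also above background on every hepatocyte and SEC array, and the DEN groups differed from the untreated ones in the markers of other cells. In hepatocytes from DEN mice all 8 erythroid and platelet markers rose (median log2 difference 5.12), as did 10 of 11 neutrophil, 8 of 11 Kupffer cell, 10 of 15 SEC, 6 of 7 monocyte, 7 of 10 stellate cell, 8 of 8 lymphocyte and 5 of 5 cholangiocyte markers, while 14 of 18 hepatocyte markers fell and none rose (median -0.42). The summed level of the hepatocyte markers, set mainly by the brightest probes, was 18.06 and 18.03 (log2) on the untreated and 17.46 and 17.50 on the DEN arrays. The median level of these markers went further, from 14.17 and 14.25 to 11.79 and 11.87, and 15 of the 18 were above background on each DEN array. The summed level of the erythroid and platelet markers went from 11.63 and 11.49 to 16.92 and 16.94. The probe of Alb, which encodes albumin, read between 8.24 and 9.25 on all 4 hepatocyte arrays, far below the maximum of 15.19. In macrophages from DEN mice all 11 Kupffer cell markers fell (median -2.87) and all 11 neutrophil markers rose (median 2.74), and in SEC from DEN mice 9 of 18 hepatocyte markers, 6 of 8 erythroid and platelet markers and 8 of 11 neutrophil markers rose. The 2 arrays of a group correlated with r of 0.9912 to 0.9984 across genes, lowest in DEN hepatocytes, which also had the fewest probes above background (12182 and 11841, against up to 18066 in DEN SEC).

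Hepatocytes from DEN mice had lower RNA levels of most nuclear-encoded subunits of the respiratory chain and ATP synthase. Of the 75 genes 65 were lower than in untreated hepatocytes and 2 were higher at an adjusted p under 0.05 (limma, Benjamini-Hochberg over 12473 genes), and 8 did not pass. Of these 8, Cox6a2, Cox6b2 and, with the probe used, Uqcrfs1 were below background on all 4 hepatocyte arrays. In the same comparison 36% of all genes tested were lower and 31.7% were higher, whereas the subunit genes lay almost entirely on one side. The near balance over all genes may be set by the scaling of the arrays, since every group has the same minimum (7.19) and maximum (15.19). The median log2 difference of the 75 genes was -0.83, against -0.02 for all genes tested, and 27 of them fell at least 2-fold, against 8.69% of all genes. Both DEN arrays lay below both untreated arrays for 66 of the 75 genes (41.5% of all genes) and above them for 3 (37.1% of all genes). The markers of hepatocytes, blood cells and bile duct cells described above moved in the same comparison, and their part in these differences was not tested. On these arrays fewer hepatocytes in the sample and less RNA per hepatocyte cannot be told apart.

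**Figure D1:**
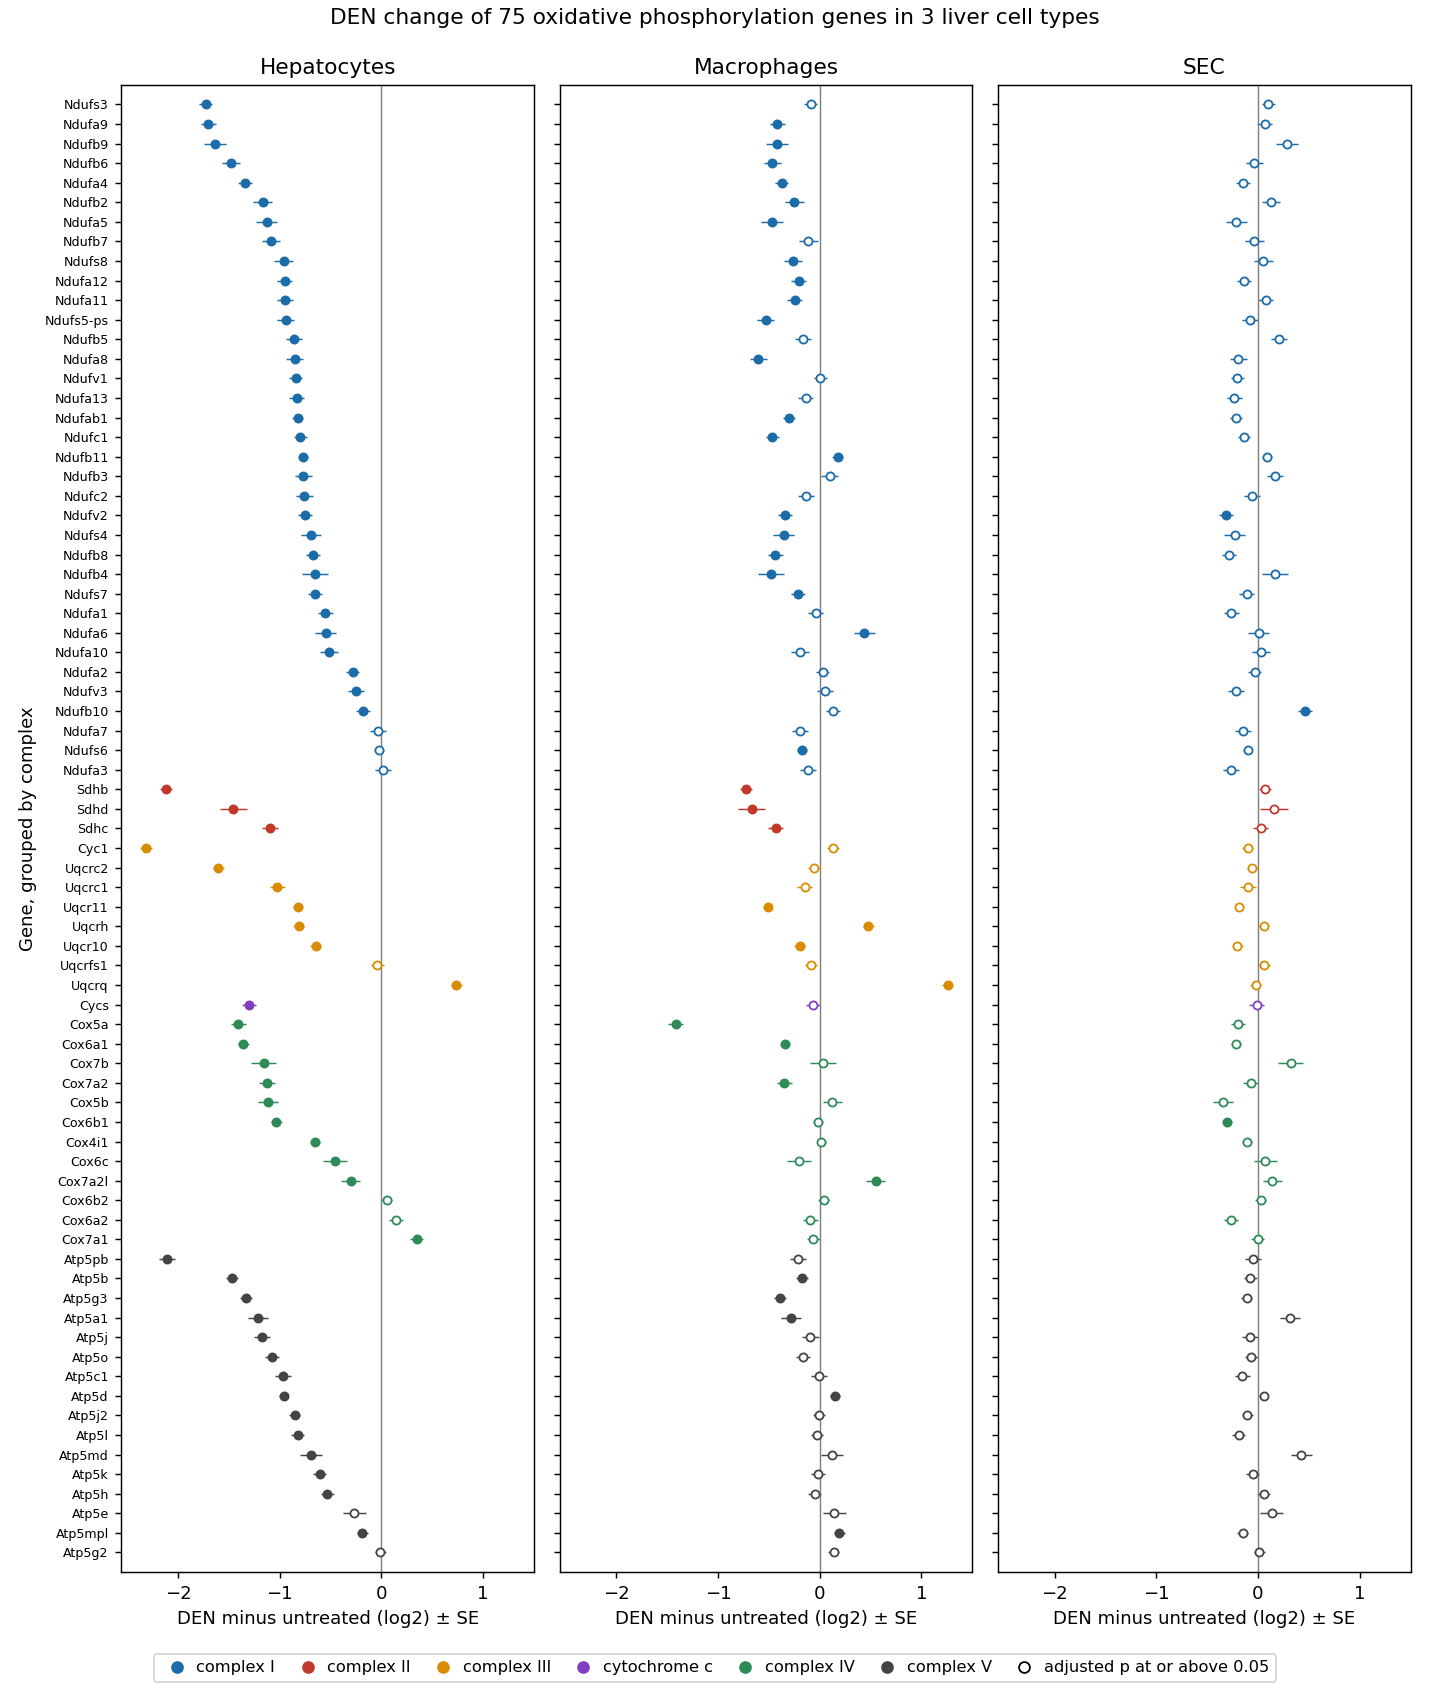
DEN minus untreated log2 difference with its SE (x axis) of each of the 75 genes (rows, coloured and grouped by complex) with 1 panel per cell type; filled points have an adjusted p under 0.05. In hepatocytes most points lie left of 0 with a median of -0.83, the medians of the other panels are -0.14 (macrophages) and -0.06 (SEC).

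The fall in hepatocytes reached every complex. The median difference was -0.80 in complex I (32 of 35 genes lower), -1.46 in complex II (3 of 3), -0.82 in complex III (6 of 8 lower, 1 higher), -0.84 in complex IV (9 of 12 lower, 1 higher) and -0.91 in complex V (14 of 16 lower). Cycs, the single cytochrome c gene, read 11.47 and 11.70 on the untreated arrays and 10.31 and 10.25 on the DEN arrays, a difference of -1.30 ± 0.07 (SE). Other probes of Cycs gave -1.12 and -0.49.

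Complex III held the steepest decline. Cyc1, the haem-carrying cytochrome c1 subunit, read 11.66 and 11.76 in untreated and 9.35 and 9.43 in DEN hepatocytes. The groups did not overlap, and the difference of -2.32 ± 0.06 (SE) was a 4.98-fold fall (adjusted p = 4.59e-11, limma). The core proteins Uqcrc1 (-1.03) and Uqcrc2 (-1.60) fell as well. Uqcrfs1, the Rieske iron-sulfur protein, was close to background on all 12 arrays (7.30 to 7.50) with the probe used. That probe was above background on none of the 4 hepatocyte arrays, so no difference is given for it. A second, dimmer probe of Uqcrfs1 gave 0.32. Uqcrq, a small structural subunit of the same complex, went the opposite way to Cyc1. It read 8.69 and 8.80 in untreated and 9.52 and 9.44 in DEN hepatocytes, a rise of 0.74 ± 0.06 (SE; adjusted p = 4.00e-07, limma).

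In complex II, which also works in the tricarboxylic acid cycle, Sdhb, the iron-sulfur subunit, read 11.70 and 11.78 in untreated and 9.69 and 9.54 in DEN hepatocytes. Both DEN arrays were lower than any untreated array, by -2.12 ± 0.06 (SE; adjusted p = 1.11e-10, limma). Other probes of Sdhb gave -2.08 and -0.59. The membrane anchors Sdhd (-1.46 ± 0.13) and Sdhc (-1.10 ± 0.07) fell less. The flavoprotein subunit Sdha was not above background, so nothing is said of it here.

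In complex I the largest falls were those of Ndufs3, a core subunit of the peripheral arm, and Ndufa9, an accessory subunit next to it. Ndufs3 read 11.79 and 11.94 in untreated and 10.16 and 10.11 in DEN hepatocytes, a difference of -1.73 ± 0.06 (SE; adjusted p = 8.42e-10, limma). Ndufa9 fell from 11.79 and 11.92 to 10.09 and 10.21 (-1.70 ± 0.08). Ndufv1, which holds the NADH-binding site, fell by 0.84, and Ndufa4, now assigned to complex IV although its name places it in complex I, fell by 1.35. The 3 complex I genes that did not pass were Ndufa3 (0.01 ± 0.08), Ndufs6 (-0.02 ± 0.05) and Ndufa7 (-0.03 ± 0.08). For Ndufs6 a second, dimmer probe gave -1.20, and for Ndufa3 a second, dimmer probe gave 0.40, so the values of both genes depend on the probe.

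In complex V, Atp5pb, which encodes the b subunit of the peripheral stalk, read 11.81 and 11.76 in untreated and 9.70 and 9.65 in DEN hepatocytes. The 2 groups were far apart, with a difference of -2.11 ± 0.08 (SE; adjusted p = 1.20e-09, limma). Its other 3 probes gave -2.06, -1.07 and -0.16. The catalytic subunits Atp5b (-1.47 ± 0.06) and Atp5a1 (-1.21 ± 0.10) fell too, although a second probe of Atp5a1 gave 0.06. Of the genes for the proton-carrying c ring, which make the same mature protein, Atp5g3 fell by 1.33 while Atp5g2 gave -0.01 ± 0.05 (adjusted p = 0.859, limma). The falls of Atp5k and of the complex I gene Ndufb11 ended below background on both DEN arrays and are bounds, at least 1.39-fold and at least 1.52-fold.

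Complex IV has subunits in tissue-specific versions, and 1 such pair, Cox7a1 and Cox7a2, went opposite ways in hepatocytes. Cox5a, a ubiquitous subunit, read 12.92 and 13.08 in untreated and 11.63 and 11.55 in DEN hepatocytes (-1.41 ± 0.07, SE). The liver-type genes Cox6a1 (-1.36) and Cox7a2 (-1.13) fell, as did Cox6b1 (-1.03), Cox7b (-1.16) and Cox4i1 (-0.65). Cox7a1, the heart and muscle counterpart of Cox7a2, read 7.89 and 8.02 in untreated and 8.22 and 8.39 in DEN hepatocytes, dim on all arrays but without overlap, and rose by 0.35 ± 0.06 (SE; adjusted p = 0.000401, limma). Cox6a2, the muscle version of Cox6a1, and Cox6b2, the testis version of Cox6b1, were not above background on any of the 4 hepatocyte arrays, and no difference is given for them. Cox7a2l, a relative of the Cox7a proteins, differed by -0.30 ± 0.09 (SE; adjusted p = 0.0142, limma). It no longer passed without the second untreated array, without the second DEN array, with array weights or after cyclic loess.

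**Figure D2:**
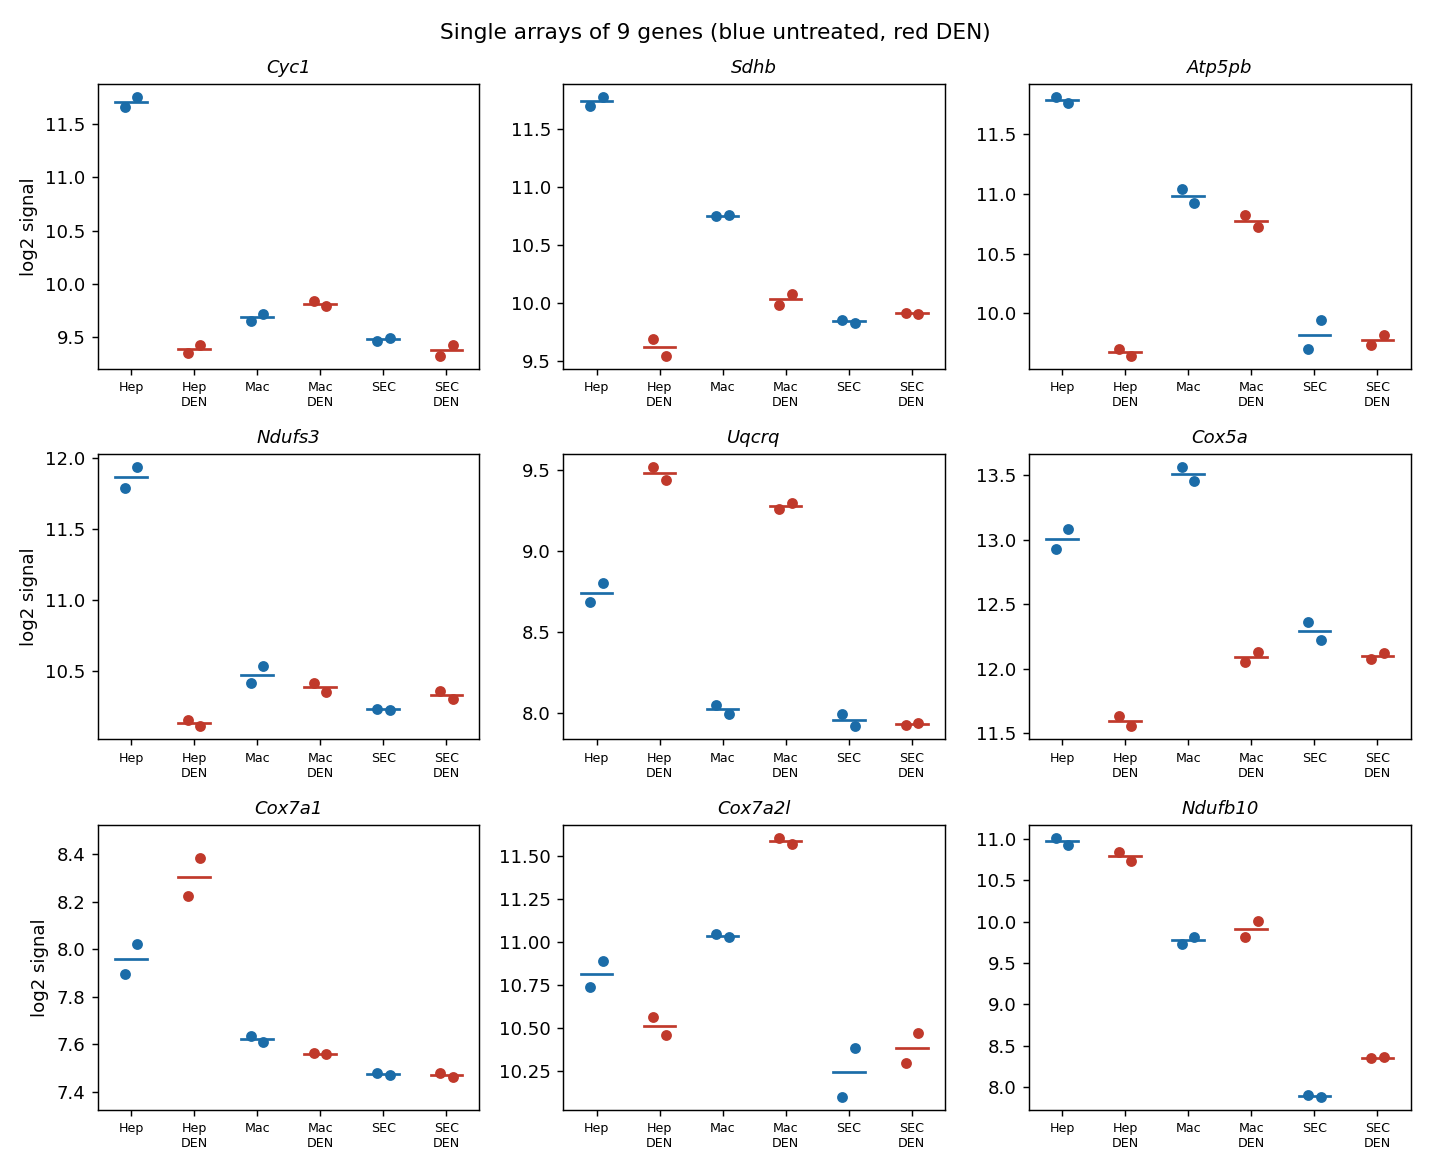
Level (log2 signal, y axis, a separate scale for each gene) of 9 genes on each of the 12 arrays; points are arrays, bars are group means, blue is untreated and red is DEN. Cyc1, Sdhb, Atp5pb and Ndufs3 are highest on both untreated hepatocyte arrays (11.66 to 11.94), and Uqcrq is highest in DEN hepatocytes and DEN macrophages (9.26 to 9.52).

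Since so many nuclear subunit genes fell together in hepatocytes, the DNA before their start sites was searched for the recognition letters of factors known to control them. The windows are the 250 bases before the RefSeq start in GRCm38.p6, and 66 of the 81 genes had at least 1 (71 windows, median GC content 57.6%, against 58.8% for all tested genes with a window). On either strand the NRF1 palindrome, seen in capitals in the Cox6a1 window printed after this paragraph, stood in 4 of the 66 genes (6.06%, against 1.65% of tested genes and 0.877% of all genes with a window). The ETS letters CCGGAAG, bound by GABP, stood in 12 (18.2%, against 13.9% and 7.83%). YY1's AAGATGGCG stood in 1 (1.52%, against 1.23% and 0.711%) and the ERR alpha letters TCAAGGTCA in 1 (1.52%, against 0.329% and 0.422%). None of these 4 was found in 50 of the 66 genes, and TATAAA stood in 7 (10.6%, against 9.49% and 14.3%). A match is a description of letters in a window, not a binding site, and a window without a match says nothing about the factor.

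The windows printed here are that of Sdhb, the steepest fall among genes with a window, which holds none of the 5 motifs, and for each of the other 4 motifs than TATAAA the window of the gene that fell most in hepatocytes among those that hold it. They were picked for their matches and are not typical of the 66 genes. Matches are in capitals, on either strand, and each window runs 5′ to 3′ on the gene's strand. Sdhb lies at chr4:140961021-140961270 (plus strand), Cox6a1 (GABP and NRF1 letters) at chr5:115348959-115349208 (minus strand), and Ndufs3 (GABP letters) at chr2:90904722-90904971 (minus strand). Atp5j, a stalk subunit of complex V that fell by 1.17, has 2 windows, of which the one at chr16:84834977-84835226 (minus strand) holds the YY1 and GABP letters, and Atp5g3 (ERR alpha letters) lies at chr2:73911327-73911576 (minus strand).
Sdhb: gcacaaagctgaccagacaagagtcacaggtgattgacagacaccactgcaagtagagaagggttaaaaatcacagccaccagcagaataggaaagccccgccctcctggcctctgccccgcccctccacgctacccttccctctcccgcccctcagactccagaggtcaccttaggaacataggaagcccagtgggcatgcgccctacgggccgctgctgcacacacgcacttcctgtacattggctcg
Cox6a1: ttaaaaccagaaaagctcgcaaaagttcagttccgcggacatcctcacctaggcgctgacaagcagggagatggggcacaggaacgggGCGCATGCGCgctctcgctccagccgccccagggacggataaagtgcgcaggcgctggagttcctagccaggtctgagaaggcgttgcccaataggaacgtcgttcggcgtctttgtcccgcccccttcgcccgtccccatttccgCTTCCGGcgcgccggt
Ndufs3: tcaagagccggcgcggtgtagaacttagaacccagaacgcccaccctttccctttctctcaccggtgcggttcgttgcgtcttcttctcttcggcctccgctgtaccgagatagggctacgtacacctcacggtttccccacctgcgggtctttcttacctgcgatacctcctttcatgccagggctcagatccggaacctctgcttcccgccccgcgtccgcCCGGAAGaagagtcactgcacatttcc
Atp5j: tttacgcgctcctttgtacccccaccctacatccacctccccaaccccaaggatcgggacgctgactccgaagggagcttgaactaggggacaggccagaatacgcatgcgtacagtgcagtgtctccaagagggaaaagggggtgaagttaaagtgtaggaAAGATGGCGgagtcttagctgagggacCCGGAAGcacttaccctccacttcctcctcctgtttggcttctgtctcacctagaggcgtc
Atp5g3: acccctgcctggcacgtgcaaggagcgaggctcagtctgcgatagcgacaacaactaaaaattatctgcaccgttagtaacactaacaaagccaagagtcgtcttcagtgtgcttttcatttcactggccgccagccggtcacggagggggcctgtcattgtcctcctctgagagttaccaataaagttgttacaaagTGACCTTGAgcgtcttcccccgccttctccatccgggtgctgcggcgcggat

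The differences of these 5 genes in hepatocytes were -2.12 (Sdhb), -1.73 (Ndufs3), -1.36 (Cox6a1), -1.33 (Atp5g3) and -1.17 (Atp5j). The genes were chosen by the size of their fall, Sdhb as the steepest, so their order says nothing about the motifs. The gene with the steepest fall of all, Cyc1, and the riser Uqcrq have no window in the table used.

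In macrophages the change was smaller and ran in both directions. Of the 75 genes 30 were lower and 7 were higher in cells of DEN mice, where 24.3% of all genes tested were lower and 18.6% were higher, and the median difference was -0.14 (all genes -0.02). The counts were 20 lower and 10 higher after cyclic loess and 20 and 5 after background subtraction. Complex I (19 of 35 genes lower, 2 higher) and complex II (3 of 3 lower) held most of the falls. In complex V 3 of 16 were lower and 2 higher. All 11 Kupffer cell markers were lower in the same comparison, and the summed level of that list went from 17.51 on both untreated arrays to 14.42 and 14.38, while that of neutrophils went from 13.19 and 13.20 to 16.03 and 15.74. Lists of other cells moved too. The summed level of the hepatocyte markers went from 14.43 and 14.30 to 13.24 and 13.18, and that of the SEC markers from 14.85 and 14.82 to 13.34 on both arrays. That of the lymphocyte markers rose from 13.94 and 13.98 to 15.66 and 15.69. The part of all these markers in the differences of the subunit genes was not tested.

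Cox5a changed most in macrophages. It read 13.56 and 13.46 on the untreated and 12.05 and 12.13 on the DEN arrays, so that the macrophage groups stood apart and the DEN level came close to that of SEC (12.07 to 12.36). The difference was -1.42 ± 0.07 (SE; adjusted p = 3.81e-08, limma), close to its fall in hepatocytes, while its partner Cox5b gave 0.13 ± 0.10. All 3 measured complex II genes fell: Sdhb from 10.75 and 10.76 to 9.98 and 10.07 (-0.72 ± 0.06, SE), Sdhd by 0.67 ± 0.13 and Sdhc by 0.43 ± 0.07. Other probes of Sdhb gave -0.62 and -0.08 in macrophages. Ndufa8, an accessory subunit of complex I with disulfide-rich motifs, fell from 11.31 and 11.21 to 10.67 and 10.64 (-0.61 ± 0.08), and Ndufs5-ps by 0.53 ± 0.08.

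The 7 genes that rose in macrophages were led by Uqcrq. Its level was 8.05 and 7.99 on the untreated and 9.26 and 9.30 on the DEN arrays, a rise of 1.26 ± 0.06 (SE; adjusted p = 1.27e-08, limma), while it gave -0.02 ± 0.06 in SEC. Cox7a2l rose from 11.05 and 11.03 to 11.61 and 11.57 (0.55 ± 0.09), Uqcrh, the hinge protein of complex III, from 12.53 on both arrays to 13.02 and 12.99 (0.48 ± 0.05), and Ndufa6 from 11.39 and 11.41 to 11.92 and 11.76 (0.44 ± 0.10). The DEN and untreated macrophage arrays did not overlap for any of these 4. Uqcrh and Ndufa6 thus changed in opposite directions in the 2 cell types, having fallen by 0.81 and 0.55 in hepatocytes. Ndufa6 no longer passed without the first DEN macrophage array (0.36). Atp5mpl (0.19), Ndufb11 (0.18) and Atp5d (0.15) rose by less. A second probe gave 0.005 for Atp5mpl and 0.07 for Ndufb11, so the size of these 2 rises depends on the probe. Cyc1, the steepest fall of hepatocytes, gave 0.13 ± 0.06 in macrophages (adjusted p = 0.102, limma).

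In SEC few subunit genes passed the test. Of the 75 genes 2 were lower and 1 was higher in cells of DEN mice, against 0.994% lower and 2.56% higher among all genes tested, and the median difference was -0.06 (all genes -0.02). The counts depend on the setting, with 18 lower and 4 higher under array weights, 7 and 4 with the SEC arrays alone and 0 and 1 after background subtraction. Ndufb10, a membrane-arm subunit of complex I, read 7.91 and 7.89 on the untreated and 8.35 and 8.37 on the DEN arrays, clear of each other, and rose by 0.46 ± 0.07 (SE; adjusted p = 0.00232, limma). A second probe of Ndufb10 gave 0.11, so the size of its rise depends on the probe. In hepatocytes, where its level was 10.73 to 11.01, it was higher than in SEC on every array, and the hepatocyte markers were higher in DEN than in untreated SEC (summed level 15.40 and 15.39 against 13.08 and 13.13); their part in its rise was not tested. Ndufv2, an iron-sulfur subunit (-0.31 ± 0.07), and Cox6b1 (-0.30 ± 0.05, and -0.10 with a second probe) were lower, and neither passed after background subtraction or without the first untreated SEC array.

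**Figure D3:**
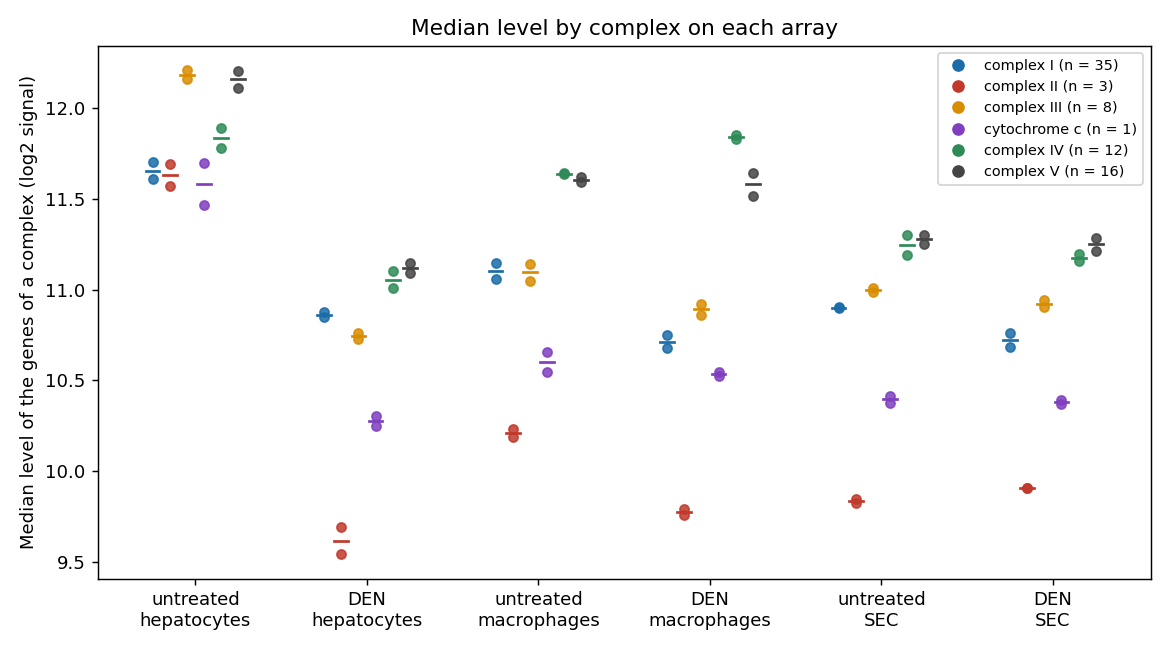
Median level (log2 signal, y axis) of the measured genes of each complex on each of the 12 arrays (points; bars are means of the 2 arrays of a group). Every complex stands highest in untreated hepatocytes, except that complex IV in DEN macrophages reaches the same height; complex II goes from 11.70 and 11.57 in untreated to 9.69 and 9.54 in DEN hepatocytes.

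Without DEN, hepatocytes had the highest subunit RNA levels. Of the 75 genes 60 were higher and 3 lower in untreated hepatocytes than in untreated macrophages (27.9% and 36.5% of all genes tested; median difference of the members 0.60), and 66 were higher and 1 lower than in untreated SEC (28.3% and 38.9% of all genes; median 0.79). After cyclic loess these medians were 1.08 and 1.29. Untreated macrophages exceeded untreated SEC in 43 genes and were below in 1 (23.1% and 22.2% of all genes; median 0.24). The median level over the 75 genes was 11.70 and 11.76 on the untreated hepatocyte arrays, 11.15 and 11.06 on those of macrophages and 10.79 and 10.90 on those of SEC. The 3 cell types thus ranked in that order without overlap of their arrays.

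The genes that set untreated hepatocytes apart most were Cyc1, which was 2.02 ± 0.06 higher than in macrophages and 2.23 ± 0.06 higher than in SEC, Ndufv1 and Ndufb9 (each 1.57 higher than in macrophages), and Ndufb10 and Atp5pb (3.07 and 1.96 higher than in SEC). Ndufb10 was the most uneven across cell types: its untreated levels were 11.01 and 10.93 in hepatocytes, whereas macrophages read 9.73 and 9.81, and SEC only 7.91 and 7.89. Macrophages also exceeded SEC in Cox5a (1.22 ± 0.07) and Atp5pb (1.16 ± 0.08), and only Ndufv1 was lower in them (-0.36 ± 0.06). Cox6a2 ran against the rest. It was below background on both untreated hepatocyte arrays (7.28 and 7.31) and read 8.96 and 8.85 in macrophages and 8.87 and 8.97 in SEC, which puts hepatocytes at least 2.63-fold and at least 2.66-fold lower. Cox5a (-0.51) and Ndufa7 (-0.38) were the other 2 genes lower in untreated hepatocytes than in macrophages.

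With DEN the hepatocytes no longer stood above the macrophages in the deposited values, and against SEC the direction depended on the measure. Of the 75 genes 14 were higher and 38 lower in DEN hepatocytes than in DEN macrophages (27.8% and 39.5% of all genes tested), and 19 were higher and 27 lower than in DEN SEC (26.8% and 40.2%). These splits depend on the scaling of the arrays: after cyclic loess they were 24 higher and 19 lower against macrophages and 36 higher and 5 lower against SEC. DEN macrophages were higher than DEN SEC in 25 genes and lower in 8 (25.1% and 28.8% of all genes). The summed level of the Kupffer cell markers was 14.42 and 14.38 on the DEN macrophage arrays. That was below DEN SEC (16.01 and 15.99) and close to DEN hepatocytes (14.24 and 14.17). The neutrophil markers were highest on the DEN macrophage arrays (16.03 and 15.74). The part of these markers in the comparisons was not tested. The median level over the 75 genes was 10.84 and 10.85 on the DEN hepatocyte arrays. It was 10.82 and 10.91 on those of DEN macrophages and 10.76 and 10.68 on those of DEN SEC. DEN hepatocytes thus lay within the range of the macrophage arrays and above both SEC arrays. Cox6a2 remained lower in DEN hepatocytes, at least 2.38-fold against macrophages and at least 2.13-fold against SEC.

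The difference between the DEN responses was tested directly, as an interaction in the same fit. The response of hepatocytes was lower than that of macrophages in 61 genes and higher in 1 (32.2% and 30.7% of all genes tested; median difference -0.70), and lower than that of SEC in 63 and higher in 4 (30.1% and 29.5%; median -0.77). The response of macrophages was lower than that of SEC in 18 genes and higher in 7 (17.6% and 15.3%; median -0.08), a count that fell from 25 in all to 13 after background subtraction and to 14 without the first untreated macrophage array, and to 16 without either DEN SEC array. These 3 contrasts share groups with one another and with the comparisons above. The cell type markers moved in the same responses, and their part was not tested.

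Most measured subunits encoded by mtDNA were higher in DEN than in untreated hepatocytes. Their transcripts come from both strands of the mitochondrial chromosome as long precursors, and 8 of the 13 had a probe above background, under the symbols ND1, ND4, ND4L, ND5 and ND6 (complex I), CYTB (complex III), COX2 (complex IV, not the cyclooxygenase gene) and ATP6 (complex V). In DEN hepatocytes 7 of the 8 rose and ND5 fell (31.7% and 36% of all genes tested), with a median difference of 0.42, while the nuclear-encoded members had a median of -0.83. COX2 read 13.98 and 14.22 on the untreated and 14.74 and 14.79 on the DEN arrays, a rise of 0.67 ± 0.09 (SE; adjusted p = 4.29e-05, limma). ATP6 went from 14.27 and 14.36 to 14.79 and 14.65 (0.40 ± 0.06), and CYTB from 14.38 and 14.48 to 14.92 and 14.80 (0.43 ± 0.11). In all 3 the DEN arrays lay above the untreated ones, close to the maximum of 15.19, which limits such rises.

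ND1 (0.29 ± 0.06) and ND4 (0.26 ± 0.06) rose by less, and ND6, the one subunit gene on the light strand, rose by 0.53 ± 0.11 from a level near background. ND4L rose most of these genes, but its probe also moved widely, and in opposite directions, in macrophages and SEC, as given below. ND5, the dimmest of the heavy-strand genes here, fell from 8.59 and 8.63 to 8.22 and 8.03 (-0.48 ± 0.11). The count of 7 higher and 1 lower was the same after cyclic loess, and 7 and 0 after background subtraction. The mitochondrial RNA of other cells in the sample is read by the same probes, and the rise of other cell types' markers given above accompanied these values; their part was not tested.

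In macrophages 1 of the 8 mtDNA-encoded genes rose and 2 fell, shares near those of all genes (18.6% and 24.3%), and in SEC 3 rose and 1 fell (2.56% and 0.994% of all genes). ND4L and ND4, which share a transcript, went opposite ways in both. ND4L read 13.03 and 12.74 on the untreated and 10.78 and 11.06 on the DEN macrophage arrays (-1.97 ± 0.19), and 10.39 and 10.49 on the untreated and 13.61 and 13.75 on the DEN SEC arrays (3.24 ± 0.19). ND4 rose by 0.48 ± 0.06 in macrophages and fell by 0.67 ± 0.06 in SEC. ATP6 fell by 0.36 ± 0.06 in macrophages and rose by 0.74 ± 0.06 in SEC, and COX2 rose by 0.56 ± 0.09 in SEC, a call lost without the second untreated or the first DEN SEC array.

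**Figure D4:**
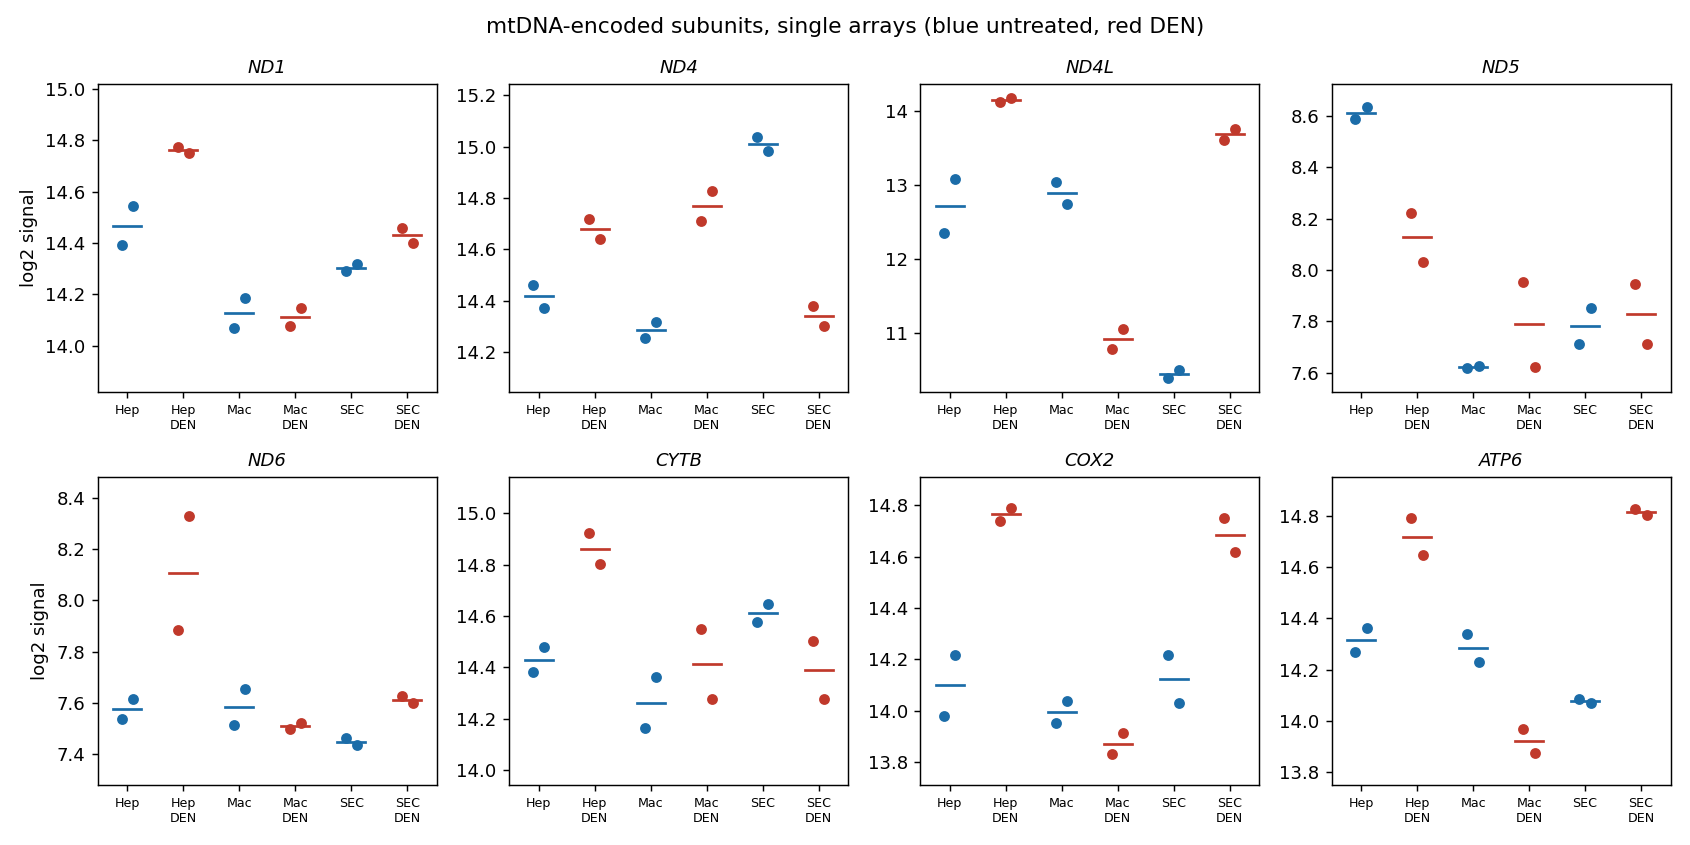
Level (log2 signal, y axis, a separate scale for each gene) of the 8 mtDNA-encoded subunit genes on each of the 12 arrays; points are arrays, bars group means, blue untreated and red DEN. In hepatocytes the DEN points lie above the untreated ones for every gene but ND5, and ND4L ranges from 10.39 to 14.18 over the 12 arrays.

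Other nuclear genes that serve the respiratory chain moved in the same direction as its subunits in hepatocytes. These lists were chosen with earlier results of the data known and describe rather than test a pathway. Of 72 mitochondrial ribosomal protein genes, which make the machinery that translates the mtDNA-encoded subunits, 63 were lower and 4 higher in DEN hepatocytes (median -0.82), against 36% and 31.7% of all genes tested, led by Mrpl15 (-1.60), Mrps31 (-1.55) and Mrps10 (-1.50). Of 39 assembly factors 30 were lower and 4 higher (median -0.73). Ndufaf1, needed for an intermediate of complex I, fell by 1.79, and Tmem70, which aids the assembly of ATP synthase, fell by 1.57. Atpaf2, a chaperone for the F1 alpha subunit, was among the 4 that rose: it read 9.35 and 9.25 in untreated and 11.56 and 11.49 in DEN hepatocytes, a rise of 2.23 ± 0.10 (SE; adjusted p = 5.61e-09, limma), and between 8.91 and 9.24 on all arrays of the other cells.

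Enzymes that feed electrons into the chain fell too, in a comparison where 36% of all genes tested were lower and 31.7% higher. Of 17 genes for electron donors to ubiquinone and for ubiquinone synthesis 14 were lower and 1 higher (median -1.14). Prodh, proline dehydrogenase, fell by 2.65, and Etfdh and Etfa, which pass electrons from fatty acid oxidation to ubiquinone, fell by 2.35 and 1.87. Of 23 genes of the tricarboxylic acid cycle and pyruvate metabolism 19 were lower and 2 higher (median -0.88), with Fh1, fumarate hydratase, at -2.26, Pcx, pyruvate carboxylase, at -1.62, and Suclg2, a succinyl-CoA ligase subunit, at -1.58. Of 22 carriers, import and cristae genes 20 were lower and 1 higher, led by the dicarboxylate carrier Slc25a10 (-1.82), the ion exchanger Letm1 (-1.58) and the aspartate-glutamate carrier Slc25a13 (-1.48). Of 8 mitochondrial antioxidant genes 6 were lower and 1 higher, among them Txn2 (-1.36), Txnrd2 (-1.18) and the superoxide dismutase Sod2 (-1.26).

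Among 20 regulators of mitochondrial biogenesis and mtDNA expression 13 were lower and 2 higher in DEN hepatocytes (36% and 31.7% of all genes tested; median -0.29). The largest falls were those of Lrpprc, which stabilises mitochondrial messenger RNAs (-1.76), Tfam, which packages and transcribes mtDNA (-1.21), and Tfb2m, a mitochondrial transcription factor (-1.12). Tfam read 9.50 and 9.36 in untreated and 7.99 and 8.45 in DEN hepatocytes, without overlap. The coactivator gene Ppargc1a gave 0.12 ± 0.07 (adjusted p = 0.158, limma), Nrf1 rose by 0.29 and Gabpa fell by 0.29; these 3 were named after their values were seen.

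In macrophages the same lists held calls in both directions, to be read against 24.3% lower and 18.6% higher among all genes tested. Of the 39 assembly factors 16 were lower and 6 higher, with Coa5 at -0.85, Cox14 at -0.64 and the copper chaperone Cox17 at 0.62. Of the 72 ribosomal genes 21 were lower and 9 higher, shares close to those of all genes, with Mrpl3 at -0.86, Mrpl27 at -0.74 and Mrpl33 at 0.70. The 23 cycle enzymes gave 10 lower and 1 higher, among them Idh2 (-0.64), Ogdh (-0.55) and Suclg2 (-0.43), and the 17 genes of the ubiquinone list 6 lower and 1 higher, among them Coq7 (-0.76), Sqor (-0.64) and Coq5 (-0.57). The 22 carriers and import genes gave 8 lower and 2 higher, the latter being the chaperonin pair Hspd1 (0.53) and Hspe1 (0.51), while the ADP/ATP carrier Slc25a5 fell by 0.53. The 8 antioxidant genes gave 3 lower and none higher (Sod2 -0.39, Txnrd2 -0.31, Gpx4 -0.23), and the 20 regulators 3 lower and 5 higher, with the coactivator gene Ppargc1b at -0.55, Slirp at -0.43 and Mterf1a at 0.39.

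In SEC, where 0.994% of all genes were lower, 2 of the 39 assembly factors, Cox14 (-0.32) and Cox18 (-0.22), and 1 of the 17 genes of the ubiquinone list, Coq5 (-0.26), were lower, and no gene of the 7 lists was higher. None of the 3 passed after background subtraction.

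**Figure D5:**
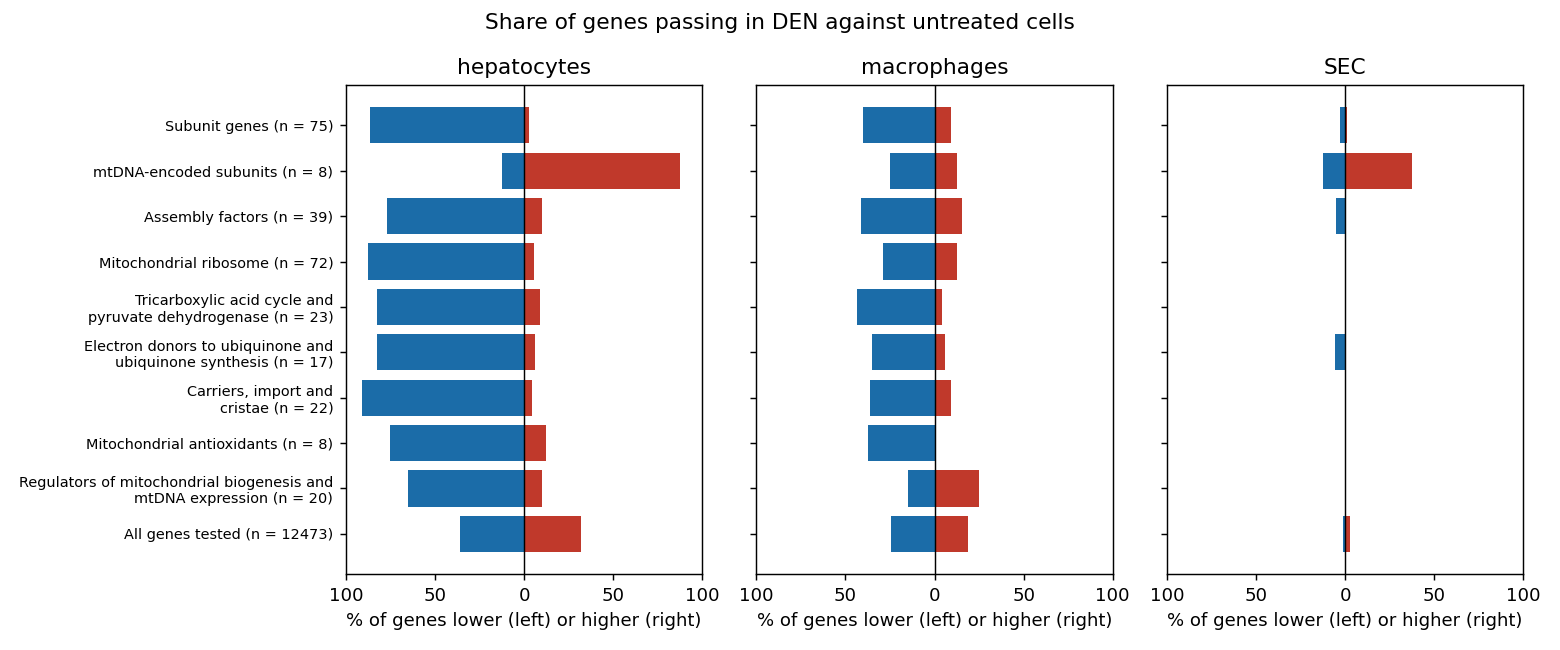
Share of the genes of each list (rows, with the number measured) that were lower (blue, to the left) or higher (red, to the right) in DEN than in untreated cells at an adjusted p under 0.05 (x axis, %), in each cell type, with all genes tested in the last row. In hepatocytes every list but the mtDNA-encoded subunits lies mainly to the left; of all genes tested 36% lie to the left and 31.7% to the right.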

How the data were processed

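RNA of 3 liver cell types with and without DEN was measured on 12 Illumina bead arrays, 2 per group. The deposited values are on a log2 scale, as their range shows, and were made by the authors with lumi, per the submitters' processing notes; no version, transform or scaling is named there. A variance-stabilising transform would compress differences of dim probes. The 12 signal columns of the deposited non-normalized table match no label and were not used.

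A single gene symbol was found for 34885 of 45281 probes, several for 18 and none for 10378; 34807 were named by Entrez ID, 11 by accession and 67 by the platform, through a gene table of GRCm38.p6 used for names. Background was the 95th percentile of 1504 olfactory and vomeronasal receptor probes on each array (7.42 to 7.57), and a probe was kept if above it on both arrays of at least 1 group, which left 20088 probes of 12473 genes. The probe with the highest mean stood for its gene. A single limma fit (3.58.1, R 4.3.3; lmFit and eBayes) with 6 group means and 6 residual degrees of freedom gave all contrasts, adjusted by Benjamini-Hochberg over 12473 genes at 0.05; errors are SE from the fit. Where both arrays of the lower group were below background, the fold is a bound against the higher of the probe's signal and the background. The fit was checked on simulated data.

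Genes were named by rule: the 5 largest passing falls and rises in each DEN contrast, the largest and smallest change of each complex in hepatocytes, the 3 largest passing differences each way between untreated cell types and between DEN responses, a preset list of core subunits and isoform pairs, and up to 3 genes of each related list; the others named were added after their values were seen. The members and lists were chosen with earlier results of these data known. Start-site windows are RefSeq's; other spellings of the motifs and longer windows were also searched and are not reported. Alternatives were cyclic loess, background subtraction, no filter, a filter on the mean, the mean of a gene's probes, a replicate block, an intensity trend, array weights, the contrast's own arrays only and each array left out. Same-numbered arrays of different groups did not deviate together (r of -0.0604 to 0.0781 over 15 pairs of groups), so replicate numbers were not used as a block.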

Additional observations from a re-analysis of the deposited data

Results flagged for a closer look

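The DEN response of a gene differed between cell types, by the interaction in the limma fit, for the following genes, chosen as the 3 largest passing differences each way. Values are differences of log2 differences.

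Hepatocytes responded more negatively than macrophages for Cyc1 (-2.44), Atp5pb (-1.90) and Ndufs3 (-1.64), and more positively for Cox7a1 (0.41), the 1 gene of that direction. They responded more negatively than SEC for Cyc1 (-2.21), Sdhb (-2.19) and Atp5pb (-2.06), and more positively for Uqcrq (0.76), Cox6a2 (0.41) and Cox7a1 (0.35). Cox6a2 was below background on all 4 hepatocyte arrays, so that no hepatocyte response was measured and its value cannot be read as one. In SEC Cox6a2 gave -0.27, which did not pass.

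Macrophages responded more negatively than SEC for Cox5a (-1.22), Sdhd (-0.83) and Sdhb (-0.79), and more positively for Uqcrq (1.28), Cox5b (0.47) and Ndufa6 (0.43). The Cox5b probe used gave 0.13 in macrophages and -0.35 in SEC, whereas a second probe gave 0.29 and 0.07, so its value depends on the probe. Of the macrophage contrasts with SEC, those of Cox5b and Ndufa6 were the closest to the threshold (adjusted p of 0.0203 and 0.0447, limma).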

How the results depend on the processing

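The fall in hepatocytes, 65 genes, stayed between 59 (cyclic loess) and 66 over the alternatives run. Genes higher in hepatocytes numbered 2, and 3 after background subtraction and 4 after cyclic loess or with the mean of a gene's probes. The SEC counts rest on single arrays and settings. Genes higher there (1) became 2 with cyclic loess, a filter on the mean or an intensity trend and 4 with array weights or the contrast's own arrays, and ran from 1 to 3 with 1 array left out (3 without either DEN macrophage array). Genes lower there (2) became 1 with cyclic loess, 0 with background subtraction, 4 without a filter, 18 with array weights and 7 with own arrays, and ran from 0 (without the first untreated or the second DEN SEC array) to 6 (without either DEN hepatocyte array). The difference of the macrophage and SEC responses (25) became 13 with background subtraction and ran from 14 to 29 with 1 array left out. Single genes turned sign for Atp5mpl in hepatocytes with cyclic loess (0.056) and, with the mean of a gene's probes, for Uqcrfs1 (0.14) and Slirp (-0.19) in hepatocytes and Atp5a1 in macrophages (0.081). The cause was not tested. With the replicate number as a block the counts were 65 lower and 2 higher in hepatocytes, 29 and 7 in macrophages and 3 and 1 in SEC, and no count moved by over 1.5 times. Background subtraction moved the median of all genes in hepatocytes from -0.02 to 0.29 and the share of higher among passing genes from 46.8% to 57.1%. In SEC that share went from 72.0% to 86.0% (cyclic loess) and 83.1% (background subtraction). It went from 41.3% to 55.4% between DEN hepatocytes and macrophages and from 42.1% to 52.4% between untreated hepatocytes and SEC (background subtraction), and from 40.0% to 51.2% (cyclic loess) and 53.3% (background subtraction) between DEN hepatocytes and SEC. Dim genes and those near the maximum have compressed differences, and 2 arrays a group limit the precision.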
